A study of Danio rerio with 36 samples.

Results

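Sperm DNA of 6 zebrafish males of the G4 generation was compared, 3 transmitting males (G4*) and 3 non-transmitting males (G4+), out of 18 fish in the series. The males are genotypically wild type for dnmt1 and of mixed background, and they descend from males homozygous for a missense allele of this gene, an ancestry that both groups share. In the offspring of a G4* male a part of the clutch, and not all of it, has poor larval T cell development. A G4+ male sires offspring with normal T cells. The groups thus differ in the phenotype of the progeny and not in dnmt1 genotype or treatment. The age of the males was not given in the sources used here. G2 sperm and whole body, each of dnmt1 wild-type and homozygous mutant fish, are set beside them. The whole-body fish were taken 18 days after fertilization. Members were taken by the labels of the groups, and the differentially methylated regions that the authors list for this comparison, 164 lower and 79 higher in G4* and called intervals here, are described by their levels and nearest genes. The authors chose these intervals on the same 6 males. Their values are therefore given as a description with no test, and only the genome-wide windows and chromosome levels were tested.

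Vertebrate DNA methylation sits mostly on the cytosine of CpG dinucleotides, and Dnmt1 copies it to the new strand when DNA is replicated. In zebrafish sperm most of the genome is methylated, apart from CpG-rich stretches that include many promoters. A single sperm cell carries 1 allele, which is usually either methylated or unmethylated over a short stretch. The level of an interval in a sperm sample is hence close to 0%, to 50% or to 100% when alleles are each of 1 kind and a male carries like or unlike alleles, whereas a mixture of cells can give any level. These levels cannot tell these cases apart, because the files hold ratios per CpG and no single reads.

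Whole genome bisulfite sequencing gave, for each male, the fraction of reads methylated at each CpG, printed here as percent. Of 23946533 CpGs listed on danRer10, between 59.1% and 66.3% had a value in a G4 male, and 9521488 had a value in all 6 males. The tables hold ratios alone, and the depth behind a level is therefore unknown. Over the shared CpGs the G4+ males averaged 91.4%, 91.6% and 91.4%, and the G4* males averaged 91.4%, 91.5% and 91.5%. The groups overlapped, and the difference of −0.0374 percentage points (G4* minus G4+) gave p = 0.8 in an exact permutation test, two-sided, whose smallest p for 3 males against 3 is 0.1. Sperm was more methylated than wild-type whole body, at 91.9% in G4+ and 91.8% in G4* against 82.4% over the 1 kb windows measured in each, which is the check of the sperm label that these data allow. Of 10 germ cell and testis marker genes, 8 had a tested window, and each of the 8 was above 81% in both groups. Marker windows were taken where they overlap the authors' intervals of G2 sperm, dnmt1 mutant against wild type. Nearly all of those intervals are lower in the mutant, so that unmethylated promoters could hardly enter. These levels therefore cannot show whether methylation at these genes marks a cell type. Among the 8, the largest difference was at gata4, a transcription factor gene of somatic testis cells, at 90.03% in G4+ and 81.8% in G4*.

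The levels of the intervals fell into steps in the G4+ males, and less clearly so in the G4* males. In G4+ 1, 33 intervals were under 20%, 65 lay between 35% and 65%, 137 were over 80% and 8 lay in none of these bands. G4+ 2 and G4+ 3 had 32 and 33 intervals under 20%, 66 and 63 around 50%, and 130 and 134 over 80%. The G4* males had more intervals in the middle and fewer at the top, with 30, 29 and 31 under 20%, 121, 112 and 103 between 35% and 65%, and 49, 53 and 53 over 80%. In the G4* males 43, 49 and 56 intervals lay in none of the bands, of which 38, 43 and 52 were between 65% and 80%.

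**Figure D1:**
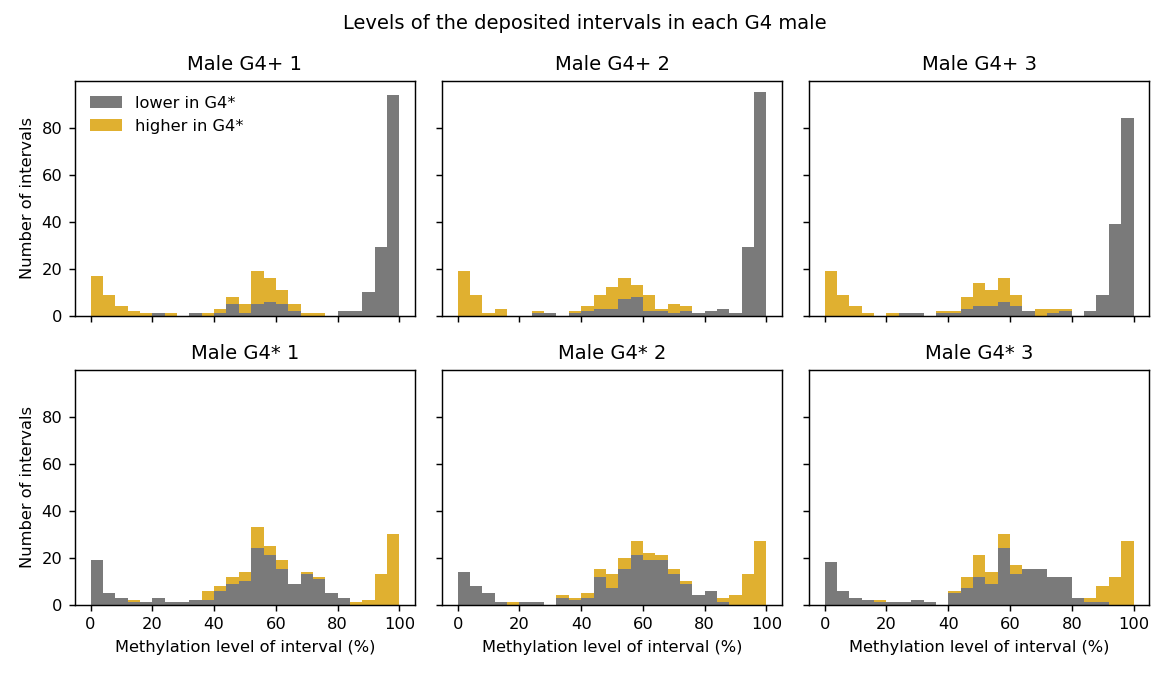
Number of deposited intervals (vertical axis) by methylation level in percent (horizontal axis, bins of 4 points) in each of the 6 G4 males, with intervals lower in G4* in grey and higher in G4* in yellow. The G4+ males have peaks near 0%, around 50% and above 90%, while in the G4* males the peak around 50% is the highest and has a shoulder up to 80%.

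By group means, 183 of the intervals had 1 group between 35% and 65% and the other under 20% or over 80%. When the middle was widened to 20 to 80% and each male was counted by itself, 217 intervals could be sorted into 4 kinds, in which all 3 males of 1 group were in the middle and all 3 of the other at the same end. In 117 of them G4+ was near 100% (median of group means 96.8%) and G4* in the middle (59.4%). In 29, G4+ was near 0% (3.76%) and G4* in the middle (53.0%). The opposite arrangement, with G4+ in the middle, held in 45 intervals with G4* near 100% (54.7% and 96.6%) and in 26 with G4* near 0% (53.9% and 3.28%). The sign of the difference is therefore fixed by the end at which the other group sits, and a group that was lower at 1 interval and higher at the next could be in the middle at both. In 23 intervals the males of 1 group were in different bands, in 2 both groups were at an end, and in 1 both were in the middle.

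The middle levels were not far from 50% in 3 of the 4 kinds and higher in the fourth. Over the 29 intervals with G4+ near 0%, the 3 G4* males had medians of 52.4%, 53.5% and 51.3%. Over the 26 with G4* near 0%, the G4+ males had 54.7%, 52.9% and 54.1%, and over the 45 with G4* near 100% they had 55.7%, 55.5% and 55.3%. Over the 117 with G4+ near 100%, the G4* males had 57.9%, 60.7% and 61.3%, with an upper quartile of 67.2% over males and intervals. The level in the middle was carried by most CpGs rather than by a few. In the middle group the median share of CpGs between 20% and 80% within an interval was 84.0% to 100% over the 4 kinds, and in the group at an end it was 0% to 2%.

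The kinds were arranged by chromosome. On chromosome 6, which holds 102 intervals, 75 had G4* in the middle and G4+ near 100%, none had G4+ near 0%, and 14 had G4+ in the middle. On chromosome 16, 59 of 68 intervals had G4* in the middle, 36 with G4+ near 100% and 23 with G4+ near 0%, while 4 had G4+ in the middle. On chromosome 10 the arrangement was the reverse, as G4+ was in the middle at all 21 intervals, with G4* near 0% at 12 and near 100% at 9. G4+ was also in the middle at all 3 intervals of chromosome 14, at 7 of 8 on chromosome 8 and at 6 each on chromosomes 13 and 24. Chromosome 9 had both arrangements, with G4* in the middle at 9 intervals and G4+ at 7. Of 187 pairs of neighbouring intervals on a chromosome that both belong to the 4 kinds, 159 (85.0%) had the same group in the middle. The counts per chromosome given above already favour like neighbours. The share expected from these counts was not computed, so that nothing about order within a chromosome is read from the 85.0%.

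**Figure D2:**
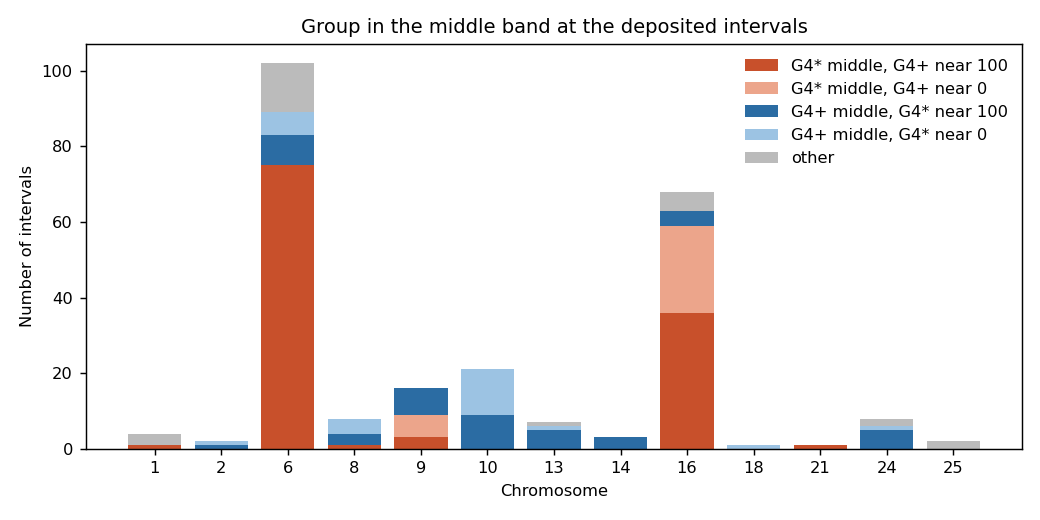
Number of deposited intervals per chromosome (vertical axis), coloured by which group lies between 20% and 80% in all 3 males and at which end the other group lies, with all other intervals in grey. Chromosomes 6 and 16 are mostly orange (G4* in the middle), whereas all 21 intervals of chromosome 10 are blue (G4+ in the middle).

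The nearest genes were 207, and 24 of them had 2 or more intervals, which together hold 60 intervals. In 9 of the 24 genes 1 interval was lower and another higher in G4*. Gene names are those of the authors' table, where 101 intervals (41.6%) lie in a gene, 63 more lie within 5000 bp of one, and 12 are over 50000 bp away. In the authors' table of G2 sperm, by comparison, 61.0% of 224130 intervals lie in a gene. Intervals higher in G4* lie in a gene at 44 of 79 and those lower in G4* at 57 of 164. The intervals are short, with a median of 17 CpGs and 604 bp.

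Among transcription and chromatin genes, foxp1b, which encodes a forkhead transcription factor, showed all 3 steps within 82.5 kb of chromosome 6. At its first interval (43597263 to 43597764, danRer10, 2445 bp from the gene) the G4+ males had 98.2%, 97.5% and 96.6% and the G4* males 73.6%, 70.8% and 73.3%. These G4* levels lay in none of the bands. The second (43606818 to 43608382), which lies in the gene and spans 71 CpGs, had 52.7%, 53.5% and 57.9% in G4+ and 3.47%, 3.60% and 3.52% in G4*. The third (43679236 to 43679738), also in the gene, had 59.0%, 48.5% and 57.9% in G4+ and 97.1%, 98.0% and 98.9% in G4*. The groups did not overlap at any of the 3, and G4+ was in the middle at both intervals within the gene, on opposite sides of G4*.

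Most of the other regulators of transcription named here showed the same kinds of step, but at dmbx1b, phc2b and lhx2b some levels lay between the bands. At dachd, a gene of the dachshund family on chromosome 9, G4+ had 3.01%, 1.95% and 0.685%, whereas G4* had 52.4%, 64.3% and 44.2%. Eya2, a co-factor of transcription with phosphatase activity, had 97.1%, 97.9% and 98.6% against 57.0%, 44.5% and 52.5%. Zfpm2a, which encodes a partner of GATA factors, had 98.1%, 98.2% and 95.8% against 44.4%, 49.1% and 59.6%. Both intervals lie in the gene, and in both the G4+ males were at the top. At scrt1b, a neuronal zinc finger repressor, the interval on 1 side of the gene had 92.7% ± 2.42 in G4+ and 58.1% ± 6.63 in G4*, and that on the other side 1.142% ± 0.286 and 51.8% ± 7.27 (SD, n = 3), so that the G4* males had about the same level at both. Pairs of intervals were nearest to the homeobox genes dmbx1b, with G4* at 68.5% and 68.8% on average and G4+ at 97.7% and 97.0%, and lhx2b, 58953 and 24075 bp from the gene on chromosome 8, with G4+ at 62.3% and 57.8% and G4* at 4.63% and 4.80%. The 2 intervals of phc2b, a Polycomb protein gene, went in opposite directions, with G4+ at 73.6% and 62.4% and G4* at 97.5% and 19.9%. Over this group of 18 genes, 18 of 24 intervals were lower in G4*, beside 67.5% of all intervals. The groups of genes were made from genes that have an interval, and nothing is read from their counts.

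Secreted signals and receptors included the gene with most intervals. Lypd6b, a gene of the Ly6 family of membrane-anchored proteins, contains 5 intervals within 15.5 kb of chromosome 9 (23348076 to 23363534), and at all 5 the G4+ males were in the middle, between 39.3% and 69.5%, and the G4* males between 91.1% and 98.8%. At the first, G4+ had 52.6%, 58.5% and 55.5% and G4* had 97.9%, 97.8% and 98.3%. At lepr, the leptin receptor gene, G4+ had 61.0%, 51.8% and 46.4% and G4* 95.3%, 91.2% and 93.0%, and at fstl5, a follistatin-like gene on chromosome 14, G4+ had 64.8%, 58.0% and 60.8% and G4* 98.8%, 97.6% and 96.5%. Wnt4b, which encodes a Wnt ligand, had the other arrangement, with 98.9%, 97.8% and 95.5% in G4+ and 54.7%, 60.7% and 64.1% in G4*. Of the 23 intervals of these 19 genes, 11 were lower and 12 higher in G4*.

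Adhesion genes included a block on chromosome 10. The clustered protocadherin gene pcdh1g1 has 4 intervals within the gene. At the first pair (21693052 to 21696211) the G4+ means were 52.6% and 45.8% and the G4* means 90.2% and 89.97%, and at the second pair (21828519 to 21831076) they were 53.1% and 54.4% in G4+ and 3.02% and 1.63% in G4*. At pcdh1a3, of the same cluster, the G4+ males had 57.3%, 56.6% and 65.4% and the G4* males 0.395%, 1.09% and 2.45%. All 5 intervals have G4+ in the middle, with G4* at the top in the first pair and at the bottom in the others. Cluster genes are similar in sequence, and reads of 1 could be placed in another, which applies also to 5S_rRNA, sult2st3, adgre5b.3 and PKN2 (1 of many). Cadm4, which encodes an immunoglobulin adhesion molecule, was near 0% in G4+ (0.594%, 0.435% and 0.168%) and at 68.4%, 69.7% and 52.9% in G4*. The 2 intervals of cspg5a, a chondroitin sulfate proteoglycan gene, lie within 4.25 kb of each other, with G4+ at 98.1% and 1.19% and G4* at 56.6% and 56.8%. Over 14 such genes, 11 intervals were lower and 8 higher in G4*.

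Among channels and transporters 13 of 15 intervals were lower in G4*, beside the 67.5% over all intervals. Most of the 15 lie on chromosome 6, where 93 of 102 intervals were lower, so that no direction of this group of genes is read from the count. At cx30.3, a connexin gene of gap junctions, G4+ had 96.9% ± 1.86 and G4* 54.97% ± 7.55 (SD, n = 3). The monocarboxylate transporter genes slc16a1a and slc5a8l on chromosome 6 had G4* means of 30.2% and 54.7% and G4+ means of 89.0% and 97.4%. Kcnh7, a voltage-gated potassium channel gene, has 3 intervals, 2 of them 35835 and 31613 bp from the gene, with G4+ means between 93.0% and 98.3% and G4* means of 53.9%, 72.5% and 51.9%. The intervals nearest to atp10a, a phospholipid flippase gene, had G4* means of 61.3% and 51.2%. The interval of abcb4, an ABC transporter gene on chromosome 16, was higher in G4*, at 1.08%, 0.490% and 0.549% in G4+ and 55.5%, 57.0% and 50.3% in G4*. At piezo2a.2, a mechanically gated channel gene, 1 interval was lower (78.8% against 44.9%) and the other higher in G4* (55.2% against 93.8%).

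In genes of vesicle traffic, 7 of 15 intervals were lower and 8 higher in G4*. Napga, which encodes gamma-SNAP, a factor in the recycling of membrane fusion complexes, has 4 intervals within 5.23 kb of chromosome 24 (951966 to 957194), with the G4+ males between 49.7% and 66.1% and the G4* males between 96.7% and 100%. The intervals of golga7, a Golgi protein gene, had G4+ means of 56.7% and 51.5% and G4* means of 5.93% and 2.32%. Edem1, a gene of glycoprotein quality control in the endoplasmic reticulum, had 49.8%, 42.8% and 46.2% in G4+ and 0.412%, 0.305% and 0.916% in G4*. In chmp4ba, an ESCRT-III gene, a single G4+ male stood in the middle (8.63%, 53.6% and 8.203%), with the G4* males at 95.6%, 96.4% and 96.7%.

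The other genes with several intervals gave like levels. Near tyrobp, an adaptor gene of immune cell receptors on chromosome 16, an interval of 76 CpGs had 96.0% ± 1.36 in G4+ and 68.5% ± 2.93 in G4*, and its neighbour 2.57% ± 2.11 and 53.0% ± 6.44 (SD, n = 3). The sulfotransferase gene sult2st3 was nearest to 4 intervals, of which 3 had G4* in the middle (68.5%, 53.0% and 61.3% on average) and the fourth G4+ (54.7%, against 94.5% in G4*). At 199227 and 205273 bp from si:ch211-223f3.1, 2 intervals had G4* at 52.5% and 51.3% and G4+ at 1.77% and 98.2%. Pairs lower in G4* lay near ip6k2b, an inositol hexakisphosphate kinase gene (58.2% and 61.5% in G4*), zgc:172271 (51.3% and 55.5%), PKN2 (1 of many), a protein kinase gene (55.0% and 54.0%), AL954832.1 (61.6% and 61.0%) and raly, an RNA-binding protein gene (30.6% and 58.2%). CR974440.1 had a pair that was higher, at 17.1% and 48.2% in G4* and 1.36% and 5.51% in G4+. On chromosome 6, 3 intervals were listed under 5S_rRNA (ENSDARG00000101494), with G4* at 67.3%, 9.54% and 59.3% and G4+ at 96.3%, 64.2% and 97.0%.

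**Figure D3:**
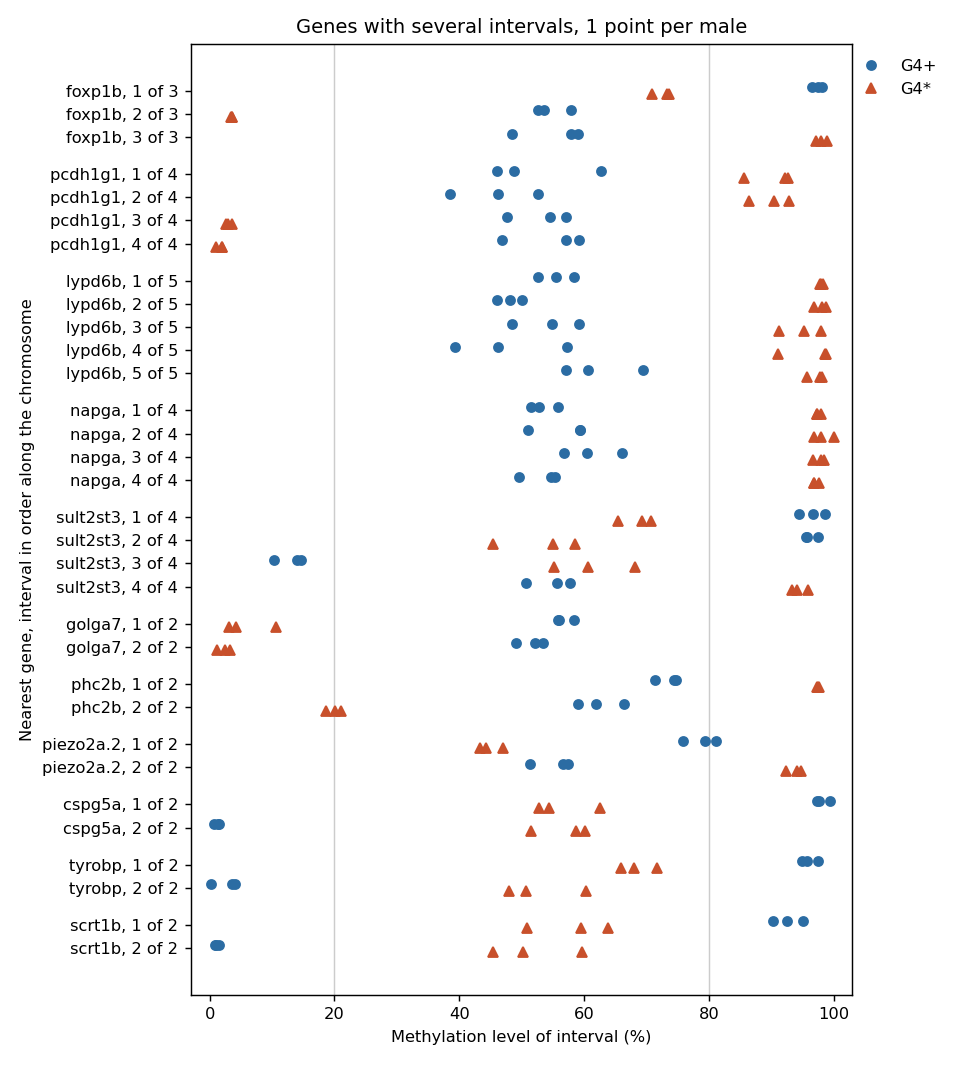
Methylation level in percent (horizontal axis) of each interval (vertical axis, in order along the chromosome) at 11 genes with 2 or more intervals, 1 point per male, with G4+ as blue circles and G4* as orange triangles, and lines at 20% and 80%. At pcdh1g1, lypd6b, napga and golga7 the blue circles keep to the middle, with the orange triangles near 100% at lypd6b and napga, near 0% at golga7 and on either side at pcdh1g1, while at cspg5a, tyrobp and scrt1b the triangles keep to the middle.

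Among intervals that share the bands of all 6 males, those with most CpGs were those of fam131bb on chromosome 16 (36 CpGs, 96.5%, 95.0% and 96.9% in G4+ and 41.2%, 58.0% and 41.0% in G4*), of CT027772.1 on the same chromosome (52 CpGs, 13.3%, 5.19% and 9.14% against 56.2%, 58.5% and 61.5%) and of st3gal3a, a sialyltransferase gene on chromosome 6 (42 CpGs, 93.9%, 97.3% and 93.3% against 59.4%, 65.4% and 65.9%). With G4+ around 50% and G4* near 100% it was that of rptor (58.3%, 55.5% and 62.4% against 96.1%, 95.8% and 96.5%), and with G4* near 0% the second of foxp1b.

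Single males left the step of their group in a few intervals. In 19 cases the 3 males of a group spanned 20 points or more, and the male that stood apart was G4+ 2 in 7, G4* 2 and G4* 3 in 5 each and G4* 1 in 2, but never G4+ 1 or G4+ 3. All 7 of G4+ 2 lie on chromosome 6, and 6 of them from cntn4 to CABZ01069974.1 (45644634 to 50240725). At cntn4, a contactin gene of neuronal adhesion, the G4+ males had 97.4%, 66.9% and 96.4%, at ppm1j, a protein phosphatase gene, 63.99%, 25.6% and 60.3%, and at CABZ01069974.1 98.2%, 54.9% and 98.6%. The G4* males were at 20.6% to 25.9%, at 0.697% to 6.33% and at 0% to 2.43% in the same intervals. The other 10 of the 16 intervals of this stretch, such as the second of cntn4 (95.5%, 96.0% and 98.2%), had G4+ 2 within 10 points of the mean of the other G4+ males. The stretch was chosen after its values were seen. On chromosome 1, G4* 3 stood apart at adgre5b.3, an adhesion receptor gene (40.1%, 44.0% and 89.5% in G4*), and at tmed1b, a gene of vesicle cargo sorting (40.6%, 48.5% and 96.1%), while the G4+ males were under 7% at both. At neo1b, a netrin receptor family gene on chromosome 25, the G4* males had 6.44%, 54.4% and 7.52%, and the G4+ males 97.0%, 96.9% and 95.6%, so that G4* 2 lay between the others of its group and G4+.

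Windows of 1 kb were tested over the whole genome, without use of the deposited intervals. Of 763308 windows with at least 5 CpGs measured in all 6 males, limma called 114 (0.0149%) lower and 56 (0.00734%) higher in G4* where the Benjamini-Hochberg adjusted p was under 5% and the groups differed by 20 points or more (0.0223% in either direction), and 42669 had an unadjusted p under 5%. Leaving out any single male gave 0 called windows in either direction, with 39085 to 43612 at an unadjusted p under 5%, so that each window call named by a gene rests on all 6 males. An offset of 0.001 in place of 0.01 on the logit scale also gave 0 in either direction, with 35497 at an unadjusted p under 5%. So did a block on the replicate number, with 41369 at an unadjusted p under 5%. In 165 of the 170 called windows, 102 with G4* and 63 with G4+, 1 group was in the middle band and the other at an end. A called window must differ by 20 points or more, which bears on this share. Among all 1375 windows in which the groups did not overlap and differed by as much, it was 41.2%, and among the 1105 of them outside the intervals 31.6%. Over all windows the groups overlapped in the share around 50%, as the G4+ males had 1.34%, 1.28% and 1.27% of windows between 35% and 65% and the G4* males 1.32%, 1.32% and 1.31% (exact permutation test, two-sided, p = 0.5).

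Of the 170 called windows, 65 lie outside the deposited intervals, 32 of them on chromosome 6, 11 on chromosome 16 and 9 on chromosome 9, and 62 are within 1 Mb of an interval. In 60 of the 65, 1 group was in the middle and the other at an end, a share to which the same limit of the test applies. A nearest gene from the authors' tables was assigned to 10 of them, and all 10 are named here, chosen after their values were seen. In G4* sperm, windows in grm4, a metabotropic glutamate receptor gene (fell by 29.4 points, limma, adjusted p = 0.0426), and in SPDEF, an ETS factor gene (fell by 39.6 points, adjusted p = 0.0469), were lower. So were windows near pou2f2a, a POU factor gene (fell by 47.2 points, adjusted p = 0.0263), stx16, a syntaxin gene (fell by 26.7 points, adjusted p = 0.0479), si:zfos-496c3.2 (fell by 40.6 points, adjusted p = 0.0398), zgc:77151 (fell by 23.1 points, adjusted p = 0.0485) and impa2, an inositol monophosphatase gene (fell by 37.6 points, adjusted p = 0.0485). In hao2, a hydroxyacid oxidase gene, the level rose by 37.7 points (adjusted p = 0.0299). Near gnl2, a gene of ribosome formation, the window outside the intervals rose by 46.5 points (adjusted p = 0.0287). A called window in the interval nearest to gnl2, 21312 bp from the gene, fell by 36.6 points (limma, adjusted p = 0.0376). Near ccne2, the cyclin E2 gene, the level rose by 50.6 points (adjusted p = 0.0480, with 11.2%, 11.0% and 15.6% in G4+ and 57.9%, 64.6% and 67.0% in G4*).

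Genes of T cell development, the mTOR pathway and DNA methylation were looked up as lists, since T cell development is what differs in the offspring. Of 35 T cell genes, 30 had a window within 5000 bp of the gene that could be tested as above, and 0 had a window called lower and 2 a window called higher, runx3 and skap2. Over all 19961 such genes, 0.185% had a called window lower in G4* and 0.12% a called window higher (0.301% in either direction). A window counted for a gene only where it overlaps one of the authors' intervals of G2 or G4 sperm. Other parts of a gene were not looked at, so that a gene without a called window is not shown to be unchanged. Rag2 and dnmt1, for example, had 2 and 1 tested windows. Some called windows were assigned no gene, and the shares can thus be too low. The median over the list of the mean difference per gene was −0.0566 points, beside −0.00296 points over all genes. The interval of runx3, a Runt transcription factor gene, had G4+ at 63.4% and G4* at 97.2%. At skap2, an adaptor gene of Src kinase signalling, the G4+ males had 3.69%, 7.19% and 4.00% and the G4* males 39.8%, 49.2% and 50.9%. An interval 42862 bp from il6r, the interleukin-6 receptor gene, had 4.49%, 12.4% and 4.09% against 38.8%, 46.2% and 43.7%. Of 20 mTOR genes, 18 had a tested window, 0 were called lower and rptor, the gene of a scaffold of the mTOR complex, was called higher, with a list median of 0.260 points. Both pik3r4, a subunit gene of the class III phosphatidylinositol kinase (8.14%, 7.71% and 7.72% against 48.1%, 61.2% and 56.7%), and prkab1a, an AMP-activated kinase subunit gene (35.98%, 49.7% and 39.4% against 10.6%, 7.85% and 10.9%), have an interval and no called window. Of 19 DNA methylation genes, all had a tested window, and 1, gadd45ab, a gene of DNA repair and demethylation, was called lower and 0 higher, with a list median of 0.0490 points. Its interval had 96.6%, 97.8% and 98.4% in G4+ and 56.5%, 58.5% and 50.9% in G4*. Some of these genes entered the lists because they were known to have an interval, so that the counts are no independent evidence about the lists.

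In 882 windows (0.116%) all G4* males were below all G4+ males by at least 20 points on average, and in 493 (0.0646%) they were above. Groups that merely did not overlap, by any difference in level, were found in 10.3% of all windows, 5.36% with G4* lower and 4.97% with G4* higher, and with 3 males a group nothing is read from this share. The share with 20 points or more was 1.41% on chromosome 6, with 436 lower and 43 higher, and 0.528% on chromosome 16, with 90 lower and 86 higher. Chromosome 7 had 7 lower and 82 higher without any listed interval, and chromosome 21 had 66 lower and 4 higher with 1 interval.

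Chromosome 6 also differed as a whole. The G4+ males averaged 91.9%, 92.0% and 91.7% on it and the G4* males 90.5%, 90.6% and 91.0%, and limma over the 25 chromosomes called it alone (1 of 25 lower, 4%, and 0 higher, with 4 at an unadjusted p under 5%). The level fell by 1.12 points in G4* (adjusted p = 0.00103), and it fell by 1.02 points when the CpGs of its intervals were left out. Over the 117301 CpGs of the chromosome more than 500 kb from any interval it decreased by 1.03 points. Both settings were chosen after seeing the data. Windows between 50% and 80% made up 1.89%, 1.82% and 2.04% of chromosome 6 in G4+ and 3.62%, 3.73% and 3.00% in G4*. The groups did not overlap in this share on chromosomes 7 and 21 either. It was 3.39%, 2.65% and 1.73% against 1.59%, 1.71% and 1.68% on chromosome 7. On chromosome 21 it was 1.86%, 2.73% and 2.20% against 3.33%, 3.20% and 2.76%. Chromosome 6 was called lower with each male left out in turn (limma, adjusted p from 0.00289 to 0.0267). It was also called lower with a block on the replicate number (limma, adjusted p = 0.0325). Without G4+ 3, chromosome 7 was called higher in G4* too (adjusted p = 0.00744), to give 2 chromosomes.

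Levels of single chromosomes also differed between males of 1 group. On chromosome 7 the G4+ males had 90.6%, 91.0% and 91.8%, and the G4* males lay between 91.8% and 91.9%. On chromosome 17, G4+ 1, G4* 1 and G4* 3 were at 90.9%, 90.7% and 91.1% and the other 3 males between 92.0% and 92.1%. On chromosome 11, G4+ 2 and G4* 1 were at 92.3% and 92.1% and the other 4 between 91.2% and 91.5%. On chromosome 14, G4+ 3 was at 90.8% and the other 5 between 91.6% and 91.8%.

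**Figure D4:**
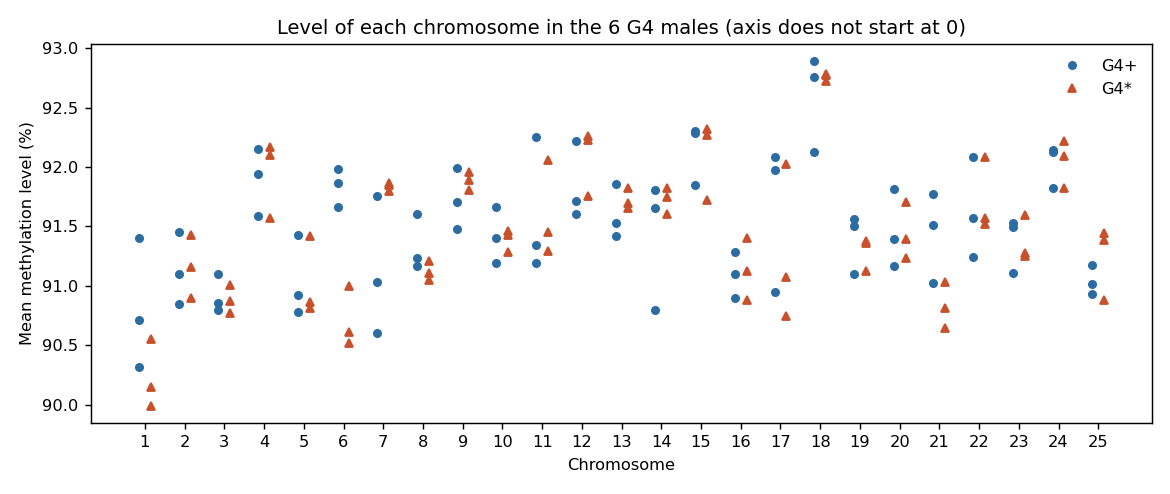
Mean methylation level in percent (vertical axis, from 90 to 93) of each of the 25 chromosomes (horizontal axis), 1 point per male, with G4+ as blue circles and G4* as orange triangles. The groups are apart on chromosome 6, at 91.7% to 92.0% and 90.5% to 91.0%. They do not overlap on chromosome 7 either, where G4* is higher and 1 G4+ male comes close to it. On chromosomes 11 and 17 males of both groups lie at both levels.

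Some of the intervals also differed between fish of 1 group elsewhere in the series, in fish that were not used to choose them. In G2 wild-type sperm all 3 males were over 80% at 127 of 238 intervals (53.4%) and all 3 under 20% at 20 (8.40%). Between the 3 G2 wild-type males the level spanned 20 points or more in 57 intervals (23.9%) and 40 points or more in 47 (19.7%), against 0.728% and 0.180% of 624580 windows of 1 kb. In 44 intervals (18.5%) a G2 wild-type male was between 35% and 65% and another under 20% or over 80%, against 0.324% of windows. In wild-type whole body, 72 of 219 intervals (32.9%) spanned 20 points or more between fish, against 1.45% of windows. In G2 dnmt1 m/m males, whose level varies between fish everywhere, it was 152 of 237 intervals (64.1%) against 16.5% of windows. No test was run on these shares, and the length of intervals (median 604 bp) differs from that of the windows. The CpGs differ too, as an interval level uses those with a value in that fish, and a window those with a value in all 6. Unlike CpGs can thus widen the range at intervals. At mylkb in wild-type whole body, levels of 21.1%, 65.7% and 88.5% rest on 3, 10 and 11 CpGs.

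**Figure D5:**
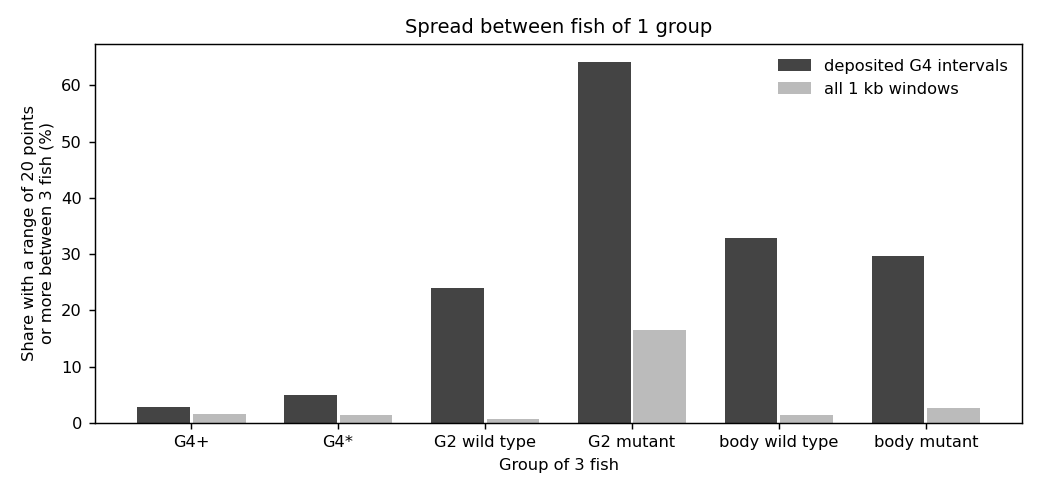
Share in percent (vertical axis, from 0) of the deposited G4 intervals (dark bars) and of all 1 kb windows (light bars) in which the 3 fish of a group span 20 points or more, for the 6 groups of the series (horizontal axis). In G2 wild-type sperm the share is 23.9% of intervals and 0.728% of windows, whereas in the G4 groups, on which the intervals were chosen, it is 2.88% and 4.94%. Interval levels use the CpGs with a value in that fish, and window levels those with a value in all 6 fish.

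At the golga7, pcdh1a3 and pcdh1g1 intervals of chromosome 10, only G2 wild-type male 3 was in the middle as the G4+ males were. The G2 wild-type males had 2.77%, 0.269% and 61.2% at the first interval of golga7, 8.29%, 0% and 53.4% at pcdh1a3, and 91.3%, 93.2% and 50.7% at the first of pcdh1g1. Among the mutants, male 2 had the highest level at the first interval of golga7 (3.00%, 36.7% and 1.79%) and at pcdh1a3 (0%, 33.5% and 0.849%). In wild-type whole body, all 3 fish were in the middle at pcdh1a3 (51.2%, 54.8% and 52.4%). At lhx2b, the G2 wild-type males were at 98.4%, 98.7% and 46.0% at the interval 58953 bp from the gene, and the G2 mutants at 62.2%, 41.1% and 1.10%, so that the level of G4* (4.63%) was near that of a mutant and of no wild-type male. Dachd gave 46.5%, 3.92% and 40.6%, si:ch211-223f3.1 gave 83.1%, 0% and 81.6% at 1 interval and 0.222%, 97.9% and 0.718% at the other, and the second interval of raly gave 4.74%, 91.4% and 1.44%. By contrast, the G2 wild-type males had like levels at the second interval of foxp1b (3.21%, 4.63% and 3.86%), at napga (97.2%, 98.3% and 99.0% at the first), at abcb4 (2.14%, 0.411% and 0%) and at cadm4 (0%, 0.298% and 0.167%), where 1 G4 group alone was in the middle. Napga had 39.9%, 86.3% and 45.5% in the G2 mutants and 58.9%, 59.3% and 93.6% in wild-type whole body.

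Over each of the 4 kinds of interval, the mean of G2 wild-type sperm lay between the levels of both G4 groups. It was 88.4% ± 3.18 where G4+ was near 100% and 86.3% ± 4.69 where G4* was, and it was 29.4% ± 7.72 where G4+ was near 0% and 23.99% ± 9.12 where G4* was (SD, n = 3). In G2 dnmt1 m/m sperm the same means were 52.9% ± 11.9, 52.5% ± 8.22, 15.3% ± 5.93 and 14.5% ± 10.2.

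Positions measured in 3 males of 1 group and missing from the whole other group were more frequent near the intervals. Within 500 kb of an interval there were 120.0 per 10000 CpGs that lacked a value in G4+ alone and 110.4 per 10000 in G4* alone, and elsewhere 24.3 and 37.0 per 10000. Near intervals with G4+ in the middle alone, 149.7 per 10000 lacked it in G4+ and 104.2 in G4*, and near those with G4* in the middle alone 99.0 and 118.7 per 10000. Whole chromosomes did not all keep this order. Chromosome 6, mostly with G4* in the middle, had 100.1 per 10000 lacking in G4+ alone and 79.6 in G4* alone. Chromosomes 8, 13 and 24, mostly with G4+ in the middle, had more lacking in G4* alone. The order was kept on chromosome 10 (62.3 and 33.5) and on chromosome 16 (74.3 and 112.3). The share of all CpGs without a value in a male was no higher near the intervals than elsewhere, at 32.6% to 39.9% and 33.8% to 41.0%. The authors removed positions with low coverage and positions with a single nucleotide polymorphism, and these cannot be told apart in the files. The part of sequence differences between the males in the methylation differences was not tested.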

How the data were processed

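Sperm DNA was sequenced by the authors after bisulfite conversion, in 2 libraries per male made with different kits, which they merged. Per the methods and processing notes, reads were trimmed with cutadapt 1.9.1, mapped to danRer10 with BWA 0.7.12 and counted per CpG with methylCtools. Positions with low coverage or a single nucleotide polymorphism were set to missing. Each single-CpG value deposited by the authors is a fraction, not normalized further, and is printed as percent. The deposited table of intervals came from metilene and limma on these males, and its columns of p-values, coefficients and group means were not used as results. Their group means leave out the last CpG of each interval and were matched within 0.001 points when it was left out here, whereas it was kept in the values given (a mean deviation of 0.665 points).

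Interval levels are means over CpGs with a value in that male (median 93.3% of them). Only the 6 G4 males entered a fit. Window means were tested with limma 3.58.1 in R 4.3.3 on the logit scale with an offset of 0.01, the means of 25 chromosomes likewise, and single values by exact permutation. Tested genes were those assigned a window through an interval of the authors' G2 or G4 tables within 5000 bp of the gene. Some windows that overlap such an interval were assigned no gene. Among them are called windows in the intervals of ptprfa, foxp1b, lypd6b and pcdh1g1. Counts of genes with a called window can therefore be too low. Males are numbered as in the columns, which name the group but not the library. The p-values of limma set a group difference against the spread between these males, moderated over all windows or all chromosomes. Kinship between the males did not enter any test. Identical means in any pair of males made up at most 1.10% of windows.

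Members, gene lists and named genes were chosen with earlier results of these data known. Named were genes with 2 or more intervals, up to 4 per role list with the largest difference within 5000 bp, the interval with most CpGs in each pattern of bands shared by 5 or more intervals, and listed T cell, mTOR and DNA methylation genes with an interval or called window. The alternatives were other offsets, bands, windows, CpG minimums, a block on the replicate number, and fits without each male. No sequence is shown, because no genome of this build was used here.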

Additional observations from a re-analysis of the deposited data

How the results depend on the processing

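Counts of called windows depended on the processing. Against 114 lower and 56 higher, limma gave 0 and 0 with an offset of 0.001 (35497 at an unadjusted p under 5%), 294 and 127 at an offset of 0.1, 214 and 101 without the logit, 25 and 17 with at least 3 CpGs, 187 and 94 with a variance trend, and 69 lower with windows of 500 bp. With each male left out in turn the counts were 0 in both directions (from 0 to 0). With the replicate number as a block they were 0 and 0, with 41369 at an unadjusted p under 5%. Deviations of same-numbered males from their group means were weakly correlated over windows (r = 0.049, 0.140 and 0.012). G4+ 1, G4+ 2, G4* 1 and G4* 2 correlated best with their own number, and G4+ 3 and G4* 3 did not. Such weak correlations cannot decide whether the numbers pair the samples. With the block chromosome 6 was still called lower, at a larger adjusted p (limma, 0.0325 against 0.00103 without the block). A minimum of 10 CpGs, windows of 2000 bp and no minimum difference kept the counts within 1.5 times. Windows with non-overlapping groups, 882 lower and 493 higher, were 287 and 204 with at least 10 CpGs, 1367 and 741 with at least 3, 359 and 232 at 30 points, and 518 and 287 with windows of 2000 bp, and ranged from 1119 to 1478 and from 665 to 1224 without 1 male. Without G4+ 3 a further chromosome was called (2 in place of 1), and the range was from 1 to 2. The difference in overall level, −0.0374 points, was 0.178 points over every CpG with a value in a male and ranged from −0.0696 to 0.0138 points without 1 male. The share of windows between 35% and 65% differed by 0.0156 points, by −0.0079 with at least 10 CpGs, and by 0.00079 to 0.0379 without 1 male. The intervals with 1 group around 50% and the other at an end were 134 with narrower and 228 with wider bands, and 183 without the last CpG of each interval, chosen after seeing the data. The cause of these changes was not tested.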
